A study of Mus musculus with 10 samples.

Results

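The MS4A membrane proteins described here were 5 genes, Ms4a4c, Ms4a6b, Ms4a6c, Ms4a6d and Ms4a7, taken as a list of gene names. The list was chosen with earlier results of these data known and leaves out other genes of the family, which are given further on. All 5 were found among the 17001 genes of a bulk RNAseq table of mouse skeletal muscle macrophages, and all 5 passed the filter on low values. The study asked how the macrophages of healthy muscle differ from those of dystrophic muscle, and bulk RNAseq was run on 3 populations purified by FACS from the hindlimb muscle of mice 4 weeks old. SkMRMs, the skeletal muscle-resident macrophages that carry high surface Folr2, came from WT mice (C57BL/10 in the methods of the study) and gave 3 libraries, called WT1, WT2 and WT3 here. Gal-3+ macrophages (gal-3 high and Folr2 low, 4 libraries, mdx1, mdx3, mdx4 and mdx5) and monocyte-derived macrophages or MDMs (high in CD52, 3 libraries, mdx1, mdx4 and mdx5) both came from mdx mice. Mdx mice (C57BL/10ScSn-Dmdmdx/J) carry the mdx mutation of the dystrophin gene in every tissue and are a model of Duchenne muscular dystrophy. The number of mice behind each library was not given in the sources used here, nor whether libraries with equal mdx numbers came from the same mouse. No library of gal-3+ macrophages or MDMs from WT mice and none of SkMRMs from mdx mice was analysed, so population and genotype cannot be told apart in any comparison with SkMRMs.

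The membrane-spanning 4-domain family A encodes small proteins that cross the membrane repeatedly and sit beside immune receptors, where they act as adaptors, as channels or in receptor trafficking. Its best known member is Ms4a1, the B cell antigen CD20, and Ms4a2 is a subunit of the high-affinity IgE receptor of mast cells. A group of the genes, including the 5 described here, is known mainly from monocytes and macrophages, and mice carry more copies of it than humans.

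The 5 genes lie within one 679 kb stretch of mouse chromosome 19 that holds the family (chr19:10962293-11640851, GRCm38, GENCODE M21). Ms4a7 (chr19:11321039-11336146) and Ms4a6d (chr19:11586604-11604849) lie on the minus strand, and Ms4a4c (chr19:11404770-11427246), Ms4a6c (chr19:11469366-11482192) and Ms4a6b (chr19:11516512-11531256) lie on the plus strand. The promoters of 4 of the 5 members were found in the RefSeq table of GRCm38.p6, which gives 250 bases before and 50 bases after each start, and that of Ms4a6d was not. The start used by RefSeq for Ms4a4c and Ms4a6b lies inside the longer span that GENCODE gives.

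Ms4a6b and Ms4a6c are shown first because they had the most alike promoters among the members and, as given further on, unlike values across the populations. Their windows (chr19:11518309-11518608 and chr19:11469118-11469417, both plus strand) were identical at 64.0% of their 300 bases after alignment, and the capitals mark a run of 48 bases that both hold, which starts 118 bases before the start of Ms4a6b and 49 bases before that of Ms4a6c. No promoter of another gene among the 32851 in the table held this run.
Ms4a6b: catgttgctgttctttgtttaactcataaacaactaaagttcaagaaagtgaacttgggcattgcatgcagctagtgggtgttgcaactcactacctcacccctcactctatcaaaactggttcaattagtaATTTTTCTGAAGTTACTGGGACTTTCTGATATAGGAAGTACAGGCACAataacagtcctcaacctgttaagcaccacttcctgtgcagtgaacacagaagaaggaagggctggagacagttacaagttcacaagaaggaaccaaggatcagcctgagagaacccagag
Ms4a6c: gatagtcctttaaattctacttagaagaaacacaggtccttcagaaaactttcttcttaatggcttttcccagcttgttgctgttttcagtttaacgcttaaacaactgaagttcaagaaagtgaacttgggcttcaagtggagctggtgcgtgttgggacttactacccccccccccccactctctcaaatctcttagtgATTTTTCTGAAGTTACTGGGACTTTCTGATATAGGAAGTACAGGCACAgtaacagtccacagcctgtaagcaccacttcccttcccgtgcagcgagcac

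The second pair is Ms4a4c and the neighbouring family gene Ms4a4b (chr19:11407411-11407710 and chr19:11443308-11443607, both plus strand), shown because both genes were highest in MDMs. These windows were identical at 75.3% of their bases, and the capitals mark a shared run of 20 bases that starts 38 bases before the start of Ms4a4c and 41 bases before that of Ms4a4b and was found in no other gene's promoter. The other 34 pairs of family promoters compared were identical at 47.7 to 55.0%.
Ms4a4c: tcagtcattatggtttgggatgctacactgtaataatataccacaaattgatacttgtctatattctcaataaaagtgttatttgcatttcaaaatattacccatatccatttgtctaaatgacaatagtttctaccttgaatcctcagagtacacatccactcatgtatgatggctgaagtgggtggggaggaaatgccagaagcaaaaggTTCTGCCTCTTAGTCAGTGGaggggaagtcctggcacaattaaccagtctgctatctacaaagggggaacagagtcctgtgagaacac
Ms4a4b: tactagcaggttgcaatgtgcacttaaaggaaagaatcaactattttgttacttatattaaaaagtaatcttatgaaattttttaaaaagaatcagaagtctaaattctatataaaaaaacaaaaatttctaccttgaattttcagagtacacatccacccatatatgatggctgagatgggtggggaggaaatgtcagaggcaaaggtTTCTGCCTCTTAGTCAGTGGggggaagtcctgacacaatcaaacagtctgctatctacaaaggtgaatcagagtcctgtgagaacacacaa

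Ms4a7 (chr19:11336097-11336396, minus strand, 1 of 2 starts in the table) is shown as the member that was highest in gal-3+ macrophages and lowest in MDMs. The capitals mark the letters GAGGAA, at base 44 counted from the start, a short form of the sequence bound by the macrophage factor PU.1.
Ms4a7: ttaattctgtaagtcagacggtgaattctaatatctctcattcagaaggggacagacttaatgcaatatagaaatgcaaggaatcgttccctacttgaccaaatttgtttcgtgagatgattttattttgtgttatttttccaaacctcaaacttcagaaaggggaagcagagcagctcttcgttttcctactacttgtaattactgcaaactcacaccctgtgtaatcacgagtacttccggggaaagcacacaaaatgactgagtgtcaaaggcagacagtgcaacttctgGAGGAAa

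Motifs were searched on both strands as plain letters. GAGGAA was found in 28.3% of all 32851 promoters, and among the members in those of Ms4a7 and of Ms4a4c (61 bases before the start), as well as in that of Ms4a4b (64 bases before). The longer PU.1 sequence GAGGAAGT, which contains GAGGAA, was in 3.2% of promoters, a joint ETS and IRF sequence (GGAA and GAAA with any 2 bases between them) in 2.72% and an interferon-response sequence (TTTC and TTTC with any 2 bases between them) in 3.44%, and none of these letters was in the 4 member windows. These matches describe the letters of the windows only. Other forms of these sequences, such as AGGAAGT in the run shared by Ms4a6b and Ms4a6c, were not searched.

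Values are normalized counts, that is reads per gene divided by 1 size factor per library. A gene was called higher or lower where the fold was at least 2 and the adjusted p was under 0.01 in limma, with Benjamini-Hochberg adjustment over all 17001 genes. Log2 fold changes are on the scale log2(normalized count + 1) and are given with their SE. The libraries held 22395027 to 75907638 reads, and the 5 members together took 0.0454 to 0.0648% of them, so that the lowest member value in the series, that of Ms4a4c in WT2, still rested on 126 reads. In bulk RNA, fewer cells of a type and less RNA per cell cannot be told apart.

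Most markers followed the labels, Lgals3 RNA did not tell the mdx populations apart, and genes of other cells were present. Macrophage genes were present throughout (Csf1r at 31834 normalized counts or more). The 8 listed summed to 212127 to 225041 in SkMRMs, 349873 to 436965 in gal-3+ macrophages and 361812 to 421701 in MDMs. Of the 8, 3 were higher in gal-3+ macrophages and 4 in MDMs than in SkMRMs, beside 5.34% and 8.81% of all genes. Csf1r itself was lower in MDMs than in SkMRMs (a fold of 0.551, not called). All 7 resident macrophage genes, with the sorting marker Folr2 among them, were lower in both mdx populations than in SkMRMs. They were also lower in MDMs than in gal-3+ macrophages. Shares of all genes called lower were 11.9%, 18% and 8.19% in gal-3+ macrophages and MDMs over SkMRMs and in MDMs over gal-3+ macrophages. Of the sorting markers, Lgals3 and Cd52 were higher and Folr2 was lower in both mdx populations than in SkMRMs. Between the mdx populations Cd52 was higher and Folr2 lower in MDMs (log2 fold changes of 1.07 and -4.38, limma adjusted p of 7.7e-06 or less). Lgals3, which encodes gal-3, had 40684 to 45826 normalized counts in gal-3+ macrophages and 40211 to 51278 in MDMs, and these ranges overlapped (0.08, limma adjusted p = 0.51). These are RNA values, whereas the sort was on protein. By flow cytometry the paper describes the mdx macrophages highest in CD52 as gal-3 low and Folr2 negative. The SkMRM libraries were rich in tendon and fibroblast transcripts, whose 7 listed genes summed to 550014 to 1368040 normalized counts there, 35164 to 54015 in gal-3+ macrophages and 41105 to 45402 in MDMs, none of them at 0. Muscle fibre genes summed to 7522 to 12075, 3964 to 5620 and 1139 to 1464, endothelial genes to 3491 to 9327, 8691 to 12341 and 3470 to 4431, and neutrophil genes to 471 to 584, 3053 to 3687 and 3918 to 4362. Dendritic cell genes summed to 509 to 786 in SkMRMs, 240 to 384 in gal-3+ macrophages and 181 to 329 in MDMs. Mast cell genes summed to 487 to 899, 115 to 386 and 70.2 to 541 in the same order. The 3 of 5 B cell genes in the table were low in every library (70.2 to 233). Of 14 interferon-induced genes, 7 were lower in gal-3+ macrophages and 5 in MDMs than in SkMRMs, beside 11.9% and 18% of all genes. None was higher there, beside 5.34% and 8.81% of all genes. In MDMs relative to gal-3+ macrophages 1 was higher, beside 3.32% of all genes. The part of these other cells, or of the higher sums of macrophage genes, in the MS4A values was not tested.

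**Figure D1:**
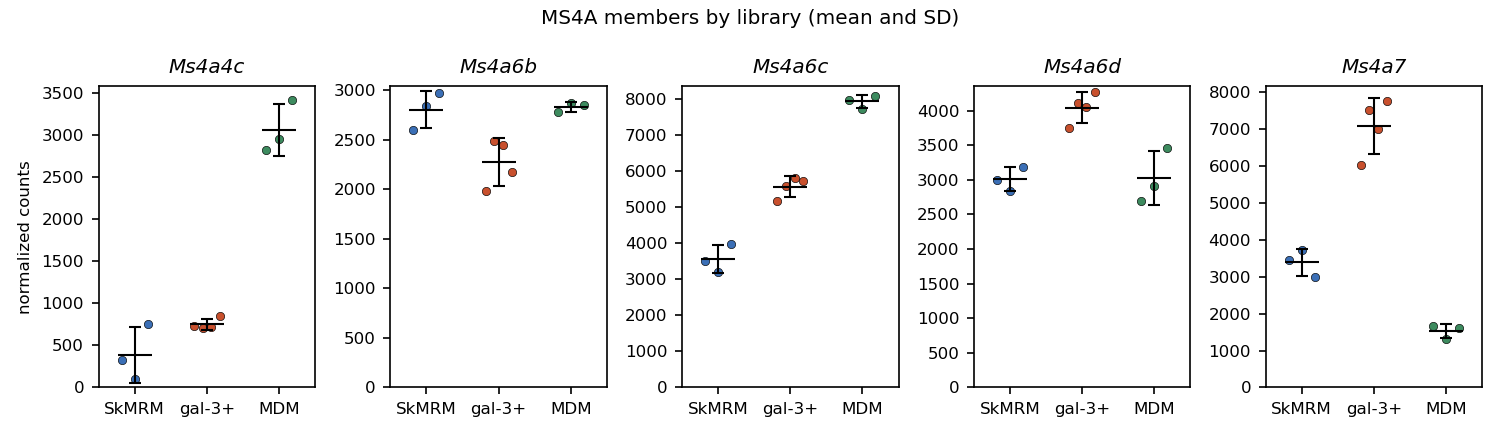
Normalized counts of the 5 MS4A members (vertical axes, each from 0) in every library of SkMRMs (3), gal-3+ macrophages (4) and MDMs (3). Points are libraries and bars are the mean and SD. Ms4a4c and Ms4a6c are highest in MDMs, Ms4a7 and Ms4a6d in gal-3+ macrophages, and Ms4a6b has its lowest values in gal-3+ macrophages.

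The members fell into different patterns rather than moving together. Ms4a7 was highest in gal-3+ macrophages and lowest in MDMs, whereas Ms4a4c and Ms4a6c were highest in MDMs and lowest in SkMRMs. Ms4a6b and Ms4a6d stayed within a 2-fold range in all comparisons. Against SkMRMs, 1 of 5 members was called higher in gal-3+ macrophages and none lower, beside 5.34% and 11.9% of all genes (17.3% in either direction). Against SkMRMs, 2 of 5 were higher in MDMs and 1 was lower, beside 8.81% and 18% of all genes (26.8% in either direction). Between MDMs and gal-3+ macrophages, 1 member was higher in MDMs and 1 was lower, beside 3.32% and 8.19% of all genes (11.5% in either direction). The median log2 fold change of the members was 0.65, 0.02 and 0.32 in these comparisons, beside -0.11, -0.17 and 0.03 for all genes tested. The 3 comparisons share libraries and are not independent of each other.

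Ms4a7, known from tissue macrophages and used in the mouse brain to tell border macrophages from microglia, gave the clearest difference. Its normalized counts were 3449, 3720 and 2998 in the SkMRM libraries, 6041, 7506, 6998 and 7772 in gal-3+ macrophages, and 1678, 1319 and 1597 in MDMs. No library of one population reached the range of another, with gal-3+ macrophages on top and MDMs at the bottom. Ms4a7 was 2.09-fold higher in gal-3+ macrophages relative to SkMRMs (log2 fold change 1.06, SE 0.10, limma adjusted p = 2.92e-07). That value lay close to the 2-fold limit, and without library WT3 it was 0.98, with scaling by the upper quartile 0.94, so that the call was lost in both. In MDMs the gene was lower than in SkMRMs (-1.15, SE 0.11, limma adjusted p = 1.58e-07) and lower than in gal-3+ macrophages (-2.21, SE 0.10, a fold of 0.216, limma adjusted p = 1.36e-10).

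Ms4a4c, a gene of mouse blood monocytes, was highest in MDMs. Its normalized counts were 2824, 2950 and 3412 in MDMs, 725, 700.2, 721 and 848 in gal-3+ macrophages, and 322, 97.8 and 751 in SkMRMs. Every MDM library stood above every other library, while the highest SkMRM library, WT3, lay within the range of gal-3+ macrophages. Ms4a4c was 10.6-fold higher in MDMs than in SkMRMs (log2 fold change 3.40, SE 0.43, 95% interval 2.49 to 4.32, limma adjusted p = 3.72e-06) and 4.08-fold higher in MDMs relative to gal-3+ macrophages (2.03, SE 0.41, limma adjusted p = 0.000782). The size of the difference from SkMRMs was uncertain, at 2.63 to 4.1 when single libraries were left out. On the recovered reads it was 2.96 with edgeR and 2.97 with DESeq2. Between gal-3+ macrophages and SkMRMs the log2 fold change was 1.37 (SE 0.41, 95% interval 0.52 to 2.23, limma adjusted p = 0.0102), which just missed the threshold.

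This last value turned on single SkMRM libraries. The SkMRM values of Ms4a4c differed 7.68-fold from lowest to highest (CV 85.1%), against 1.21-fold in both gal-3+ macrophages and MDMs, and the other 4 members differed at most 1.24-fold among the SkMRM libraries. Without WT3 the log2 fold change was 2.07 and the gene was called higher in gal-3+ macrophages (limma adjusted p = 9.29e-06), and without WT2 it was 0.60 (limma adjusted p = 0.0421). On the recovered reads it was 0.97 with edgeR (edgeR adjusted p = 0.0438) and 0.94 with DESeq2 (DESeq2 adjusted p = 0.152).

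Some monocyte genes, 3 of 7 listed (Ly6c2, Ccr2 and Plac8), had the same order as Ms4a4c in the SkMRM libraries, lowest in WT2 and highest in WT3. The other 4 had another order, Chil3 and Vcan with WT1 highest and Cd52 and Hp with WT1 lowest. The summed normalized counts of the 7 genes were 2432 in WT1, 1718 in WT2 and 3910.4 in WT3, and none of the 7 was at 0. They were 13201 to 16043 in gal-3+ macrophages and 76639 to 97650.1 in MDMs. Ccr2, the chemokine receptor of inflammatory monocytes, had 872, 629.8 and 1996 normalized counts in WT1, WT2 and WT3, and Ly6c2, a surface antigen of the same cells, had 95.6, 9.32 and 113. Cd52 had 93.3, 113 and 146. The part of such cells in the Ms4a4c values was not tested. Of the 7 genes, 5 were higher in gal-3+ macrophages relative to SkMRMs, and all 7 were higher in MDMs than in either other population. Cd52, a sorting marker, was among them in each comparison, so its values are not independent of the sort. Shares of all genes called higher were 5.34%, 8.81% and 3.32% in gal-3+ macrophages and MDMs over SkMRMs and in MDMs over gal-3+ macrophages.

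**Figure D2:**
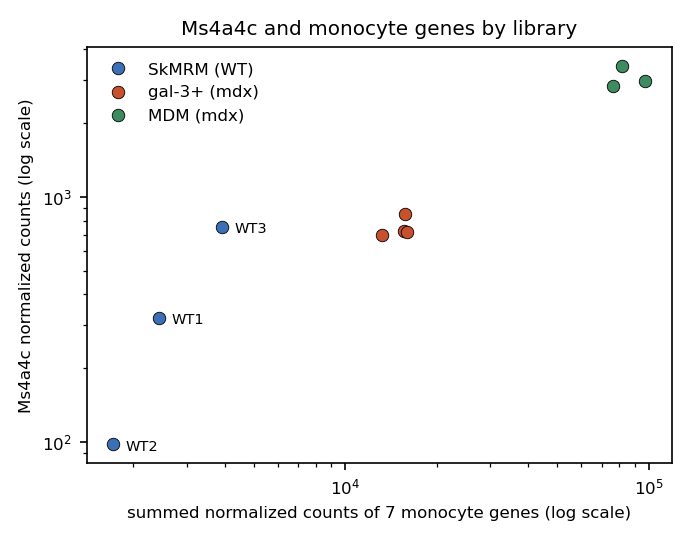
Normalized counts of Ms4a4c (vertical, log scale) against the summed normalized counts of 7 monocyte genes (horizontal, log scale), 1 point per library. Among the SkMRM libraries WT2 is lowest and WT3 highest on both axes, and the MDM libraries lie apart at the upper right.

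Ms4a6c had a graded pattern. Its normalized counts were 3507, 3206 and 3975 in SkMRMs, 5172, 5572, 5803 and 5734 in gal-3+ macrophages, and 7982, 7733 and 8081 in MDMs. The ranges of all 3 populations stood apart, in the order SkMRM, gal-3+, MDM. Ms4a6c was 2.23-fold higher in MDMs than in SkMRMs (log2 fold change 1.16, SE 0.08, limma adjusted p = 3.31e-09). The steps on either side of gal-3+ macrophages were under 2-fold, at 0.65 from SkMRMs (SE 0.08, limma adjusted p = 3.07e-06) and 0.51 to MDMs (SE 0.08, limma adjusted p = 6.88e-05). The span of the noncoding transcript BE692007, introns included, overlaps that of Ms4a6c over 12027 bases on the opposite strand. The overlap of their exons was not measured, and the strand setting of the counting was not given in the sources used here. Whether reads of one gene were counted for the other was not tested. BE692007 had 53.0 ± 1.49 (SD, n = 3), 14.6 ± 4.23 (n = 4) and 28.8 ± 7.36 (n = 3) normalized counts in SkMRMs, gal-3+ macrophages and MDMs, far below Ms4a6c.

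Ms4a6d, which in mouse macrophages is known to pair with Vsig4 at the surface and dampen the inflammasome, had 2994, 2838 and 3187 normalized counts in SkMRMs, 3747, 4104, 4048 and 4272 in gal-3+ macrophages, and 2697, 2913 and 3457 in MDMs. The gal-3+ libraries all stood above those of both other populations, which overlapped. The log2 fold change was 0.43 for gal-3+ macrophages over SkMRMs (SE 0.09, limma adjusted p = 0.000721) and -0.43 for MDMs over gal-3+ macrophages (SE 0.09, limma adjusted p = 0.00102), both under 2-fold. For MDMs over SkMRMs it was 0.00, with a 95% interval of -0.20 to 0.20 (limma adjusted p = 0.992).

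Ms4a6b had 2601, 2846 and 2971 normalized counts in SkMRMs, 1986, 2491, 2452 and 2179 in gal-3+ macrophages, and 2780, 2868 and 2849 in MDMs. Here the gal-3+ libraries all lay below the others, the reverse of Ms4a6d. The log2 fold change was -0.31 for gal-3+ macrophages over SkMRMs (SE 0.09, limma adjusted p = 0.00917) and 0.32 for MDMs over gal-3+ macrophages (SE 0.09, limma adjusted p = 0.0085), neither of them a 2-fold change. Both p-values rose above 0.01 when some single libraries were left out, to at most 0.0412 and 0.0314. Between MDMs and SkMRMs the value was 0.02 with a 95% interval of -0.19 to 0.22 (limma adjusted p = 0.901).

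Counted by overlap, the libraries of the compared populations stood fully apart for 4 of 5 members between gal-3+ macrophages and SkMRMs, for 3 of 5 between MDMs and SkMRMs, and for all 5 between MDMs and gal-3+ macrophages. The corresponding shares of all genes were 52.2%, 64.4% and 42.4%. With an adjusted p under 0.01 and no minimum fold, 4, 3 and 5 members passed in limma, beside 35.8%, 45.9% and 27.5% of all genes.

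**Figure D3:**
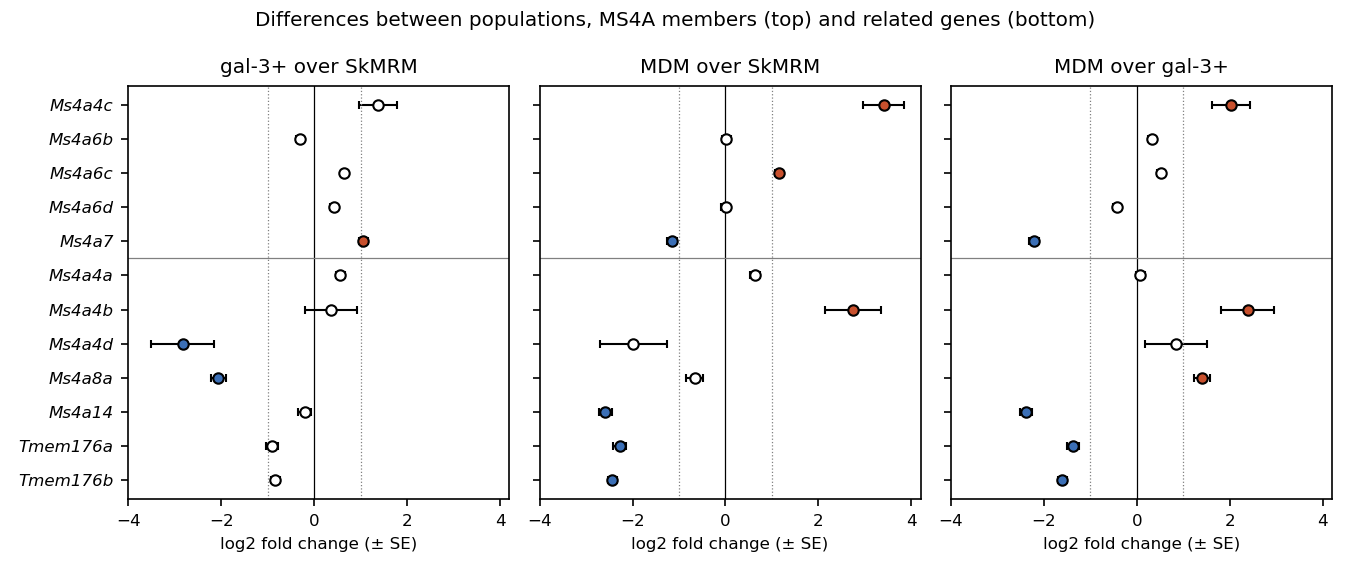
Log2 fold change (horizontal, points, with SE bars) of the 5 members above the grey line and of 7 related genes below it, in the 3 comparisons of populations. Red points were called higher and blue points lower, white points were not called, and dotted lines mark a 2-fold change. Ms4a7 changes sides between the first panel (1.06) and the others (-1.15 and -2.21), and Ms4a14, Tmem176a and Tmem176b lie at or below -1.38 in both MDM panels.

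The members make up a different mixture in each population when levels are compared per length. Dividing normalized counts by the exonic length in GENCODE M21 gave, for SkMRMs, 1738 per kb of Ms4a6c, 1733 of Ms4a6d, 761 of Ms4a7, 626 of Ms4a6b and 223 of Ms4a4c. In SkMRMs the libraries of Ms4a6c and Ms4a6d overlapped in level per kb. The order was the same in gal-3+ macrophages, with 2717 per kb of Ms4a6c, 2330 of Ms4a6d, 1590 of Ms4a7, 508 of Ms4a6b and 428 of Ms4a4c. There the last pair, Ms4a6b and Ms4a4c, overlapped. MDMs had 3869 per kb of Ms4a6c, 1749 of Ms4a4c, 1742 of Ms4a6d, 631 of Ms4a6b and 344 of Ms4a7, with Ms4a4c and Ms4a6d overlapping. Each length took all annotated exons of a gene together, 4453 bases for Ms4a7 and 1735 for Ms4a6d, whereas the reads were counted on GENCODE M9. Which transcripts were made was not tested, and the order of the genes depends on these lengths.

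As a share of the summed level per kb of the 5 members, Ms4a7 made up 12.2 to 17.7% in the SkMRM libraries, 19.7 to 21.9% in gal-3+ macrophages and 3.67 to 4.68% in MDMs. Ms4a4c made up 1.18 to 7.74%, 5.18 to 6.07% and 20.0 to 22.0% in the same order. The summed normalized counts of the members were 12709 to 13883 in SkMRMs, 17670 to 20806 in gal-3+ macrophages and 17782 to 19395 in MDMs, so that both mdx populations lay above SkMRMs and overlapped each other.

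**Figure D4:**
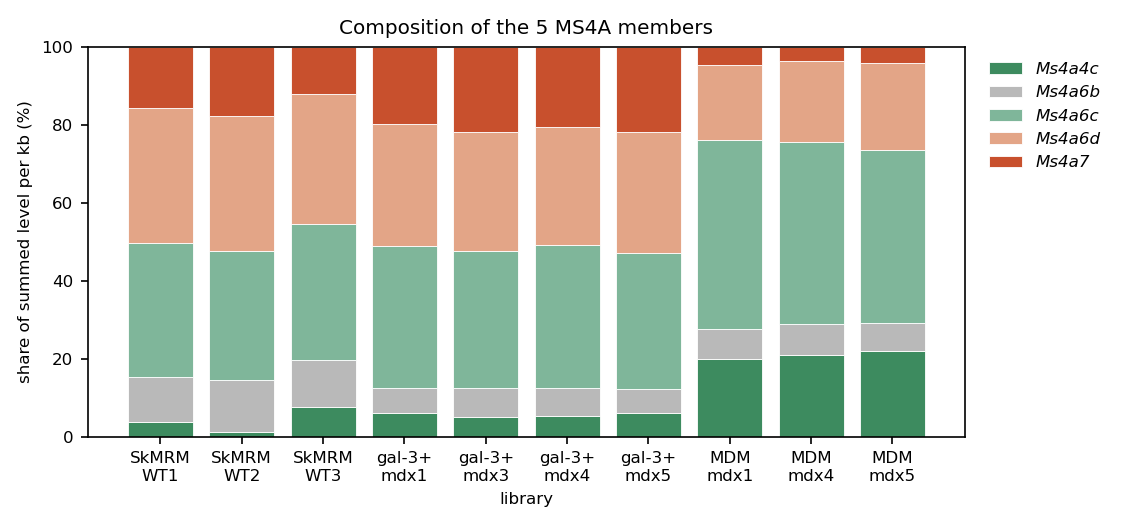
Share (%) of each member in the summed level per kb of exon of the 5 members, 1 bar per library. Ms4a7 falls to 3.67 to 4.68% and Ms4a4c takes 20.0 to 22.0% in the 3 MDM libraries.

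Some members share transcript sequence with relatives, which could have split or moved reads. Of the windows of 50 bases in the transcripts, 8.19% in Ms4a4c (most of them in Ms4a4b), 3.44% in Ms4a6b, 5.85% in Ms4a6c (all in Ms4a6b) and 2.31% in Ms4a6d were also present in another family gene. Ms4a7 shared none. Values of the first 4 genes and of Ms4a4b carry that uncertainty, and the effect on their counts was not tested.

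Of 17 other genes listed for the family, 9 were in the table, and 6 of these were called in at least 1 comparison. In gal-3+ macrophages over SkMRMs 0 of 9 were higher and 2 lower, beside 5.34% and 11.9% of all genes. In MDMs over SkMRMs 1 was higher and 3 lower, beside 8.81% and 18%. In MDMs over gal-3+ macrophages 2 were higher and 3 lower, beside 3.32% and 8.19%. The median log2 fold changes of the 9 genes were -0.83, -0.66 and 0.20.

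Ms4a14 and the paired ion channel genes Tmem176a and Tmem176b were lower in MDMs. Ms4a14 had 2598, 2940 and 2228 normalized counts in SkMRMs, 2120, 2413, 2313 and 2102 in gal-3+ macrophages, and 529.7, 337 and 436 in MDMs. The MDM libraries lay far under the rest, which overlapped, with log2 fold changes of -2.59 against SkMRMs (SE 0.14, limma adjusted p = 9.38e-11) and -2.38 against gal-3+ macrophages (SE 0.13, limma adjusted p = 9.49e-10). Between gal-3+ macrophages and SkMRMs Ms4a14 gave -0.20 (95% interval -0.48 to 0.08, limma adjusted p = 0.215), unlike its neighbour Ms4a7 at 1.06. Tmem176b had 7802 ± 288, 4402 ± 515 and 1446 ± 136 normalized counts (SD, n = 3, 4 and 3) and Tmem176a 2023 ± 85.7, 1092 ± 171 and 419 ± 61.5 in SkMRMs, gal-3+ macrophages and MDMs. Both were lower in MDMs than in SkMRMs (-2.44 and -2.28) and than in gal-3+ macrophages (-1.60 and -1.38), with limma adjusted p of 4.33e-07 or less. These genes overlap by 578 bases on opposite strands of chromosome 6, and counts in that stretch may belong to either.

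Ms4a8a, described in mouse macrophages of tumours, was lowest in gal-3+ macrophages. It had 537.7, 515 and 662 normalized counts in SkMRMs, 124, 141, 134 and 144 in gal-3+ macrophages, and 319, 397 and 366 in MDMs. The 3 populations did not overlap, and the gene was lower in gal-3+ macrophages relative to SkMRMs (-2.06, SE 0.17, limma adjusted p = 3.5e-08) and higher in MDMs relative to gal-3+ macrophages (1.40, SE 0.17, limma adjusted p = 7.38e-06). Ms4a4a, which binds the fungal receptor dectin-1 (Clec7a) in macrophages, had 4020 ± 479, 5942 ± 713 and 6230 ± 274 normalized counts (SD, n = 3, 4 and 3), with log2 fold changes of 0.56, 0.64 and 0.08 that stayed under 2-fold.

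The remaining family genes were low. Ms4a4b, a gene of T cells in mice, had 12.2 ± 6.30, 15.6 ± 6.83 and 82.7 ± 21.7 normalized counts in SkMRMs, gal-3+ macrophages and MDMs (SD, n = 3, 4 and 3). It was higher in MDMs than in SkMRMs (2.75, SE 0.60, limma adjusted p = 0.00093) and than in gal-3+ macrophages (2.39, SE 0.57, limma adjusted p = 0.003), the second call being lost without MDM library mdx4 or mdx5 (limma adjusted p = 0.0186 and 0.0146). The 2 of 5 defining T cell genes in the table summed to 15.5 to 64.2 normalized counts in SkMRMs. Their sums were 0.00 to 14.8 in gal-3+ macrophages and 9.49 to 23.5 in MDMs. The part of T cells in the Ms4a4b values was not tested. Ms4a4d was lower in gal-3+ macrophages (11.3 ± 6.47, n = 4) than in SkMRMs (74.2 ± 23.5, n = 3), at -2.82 (SE 0.67, limma adjusted p = 0.0024), a call lost without WT3 (limma adjusted p = 0.0163). Ms4a1, the B cell antigen CD20, had means of 15.7, 2.15 and 12.3 normalized counts and the predicted gene Gm8369 25.8, 26.6 and 30.0, and neither was called.

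Genes of proteins that work with MS4A members were measured alongside. Clec7a rose from 992.7 ± 209 normalized counts in SkMRMs to 10569 ± 939 in gal-3+ macrophages and 16804 ± 710 in MDMs (log2 fold changes over SkMRMs of 3.43 and 4.10, limma adjusted p of 1.47e-13 or less). Trem2, a lipid receptor whose shed form is linked to the MS4A locus in humans, had 643.5 ± 99.1, 5657 ± 672 and 2425 ± 128 normalized counts, and like Ms4a7 it was higher in gal-3+ macrophages relative to SkMRMs (3.14, limma adjusted p = 4.19e-13) and lower in MDMs than in gal-3+ macrophages (-1.22, limma adjusted p = 2.68e-07). Unlike Ms4a7, Trem2 was higher in MDMs than in SkMRMs (1.92, limma adjusted p = 3.78e-10).

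Vsig4, the complement receptor of resident macrophages and known partner of Ms4a6d, had 898, 629 and 623 normalized counts in SkMRMs, 46.6, 54.7, 57.5 and 52.6 in gal-3+ macrophages and 0 in all 3 MDM libraries. SkMRMs thus had at least 178-fold and gal-3+ macrophages at least 13.1-fold more than the floor of 3 reads per library (4.03 normalized counts on average over the MDM libraries), whereas Ms4a6d itself was within 2-fold in all populations. In gal-3+ macrophages Vsig4 was lower than in SkMRMs (-3.72, SE 0.43, limma adjusted p = 1.99e-06). Of the signalling adaptors, Tyrobp (DAP12) was higher in gal-3+ macrophages and in MDMs than in SkMRMs (1.21 and 1.38, limma adjusted p of 1.11e-09 or less), and Fcer1g (the Fc receptor gamma chain) gave 0.71 and 0.72, under 2-fold.

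The genes around the cluster did not share one direction. Of 17 other genes in the table that lie between the first and last MS4A gene or within 300 kb, 2 were higher and 2 lower in gal-3+ macrophages relative to SkMRMs, 3 were higher and 2 lower in MDMs than in SkMRMs, and 1 was higher in MDMs relative to gal-3+ macrophages. Over all genes, 5.34% were called higher and 11.9% lower in the first comparison. These shares were 8.81% and 18% in the second and 3.32% and 8.19% in the third. Slc15a3, a lysosomal peptide and histidine transporter, had 2665 ± 191, 10384 ± 811 and 16272 ± 1821 normalized counts in SkMRMs, gal-3+ macrophages and MDMs (SD, n = 3, 4 and 3), with log2 fold changes over SkMRMs of 1.96 and 2.61 (limma adjusted p of 8.96e-12 or less). Tmem132a was higher in gal-3+ macrophages and MDMs than in SkMRMs (1.22 and 1.12, limma adjusted p of 4.04e-05 or less). Stx3, a SNARE protein of vesicle fusion, was higher in MDMs than in SkMRMs (1.80, limma adjusted p = 1.83e-07) and than in gal-3+ macrophages (1.13, limma adjusted p = 4.73e-05). The lower genes were all low in level, namely Vwce (-3.17 in gal-3+ macrophages and -3.45 in MDMs), BE692007 (-1.84 in gal-3+ macrophages) and Gm38275 (-4.41 in MDMs), each against SkMRMs with a limma adjusted p of 0.00985 or less. The calls of Vwce and BE692007 were lost without any 1 of the SkMRM libraries (limma adjusted p of 0.0207 to 0.0412) and in edgeR (edgeR adjusted p of 0.0111 to 0.0286). Leaving out single gal-3+ libraries (mdx1, mdx4 and, for Vwce, mdx5) or MDM libraries (mdx4 or mdx5, for Vwce) also ended a call (limma adjusted p of 0.0112 to 0.0324). That of Tmem132a in MDMs fell under 2-fold without WT3 (0.93) or with upper-quartile scaling (0.96).

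Across the 10 libraries the members paired up by level. The Pearson correlation of log2(normalized count + 1) was 0.93 between Ms4a4c and Ms4a6c and 0.79 between Ms4a6d and Ms4a7, and it was -0.73 between Ms4a6b and Ms4a7 and -0.69 between Ms4a6b and Ms4a6d. These values describe 10 points that share 3 populations and their size factors. Among 10860 genes outside the family, the nearest to Ms4a4c were Klra2 (0.984), Fpr1 (0.979) and Lgals9 (0.978), and the nearest to Ms4a6c were Ptpn2 (0.996), Ppm1h (0.995) and Cd53 (0.993). Nearest to Ms4a7 were Ppm1f (0.991), Atxn1 (0.984) and Afap1l2 (0.982), to Ms4a6d Nudt9 (0.961), Pak1 (0.949) and Fance (0.947), and to Ms4a6b the noncoding genes Gm42659 (0.957), Gm42664 (0.953) and A130048G24Rik (0.951). Klra2 had 34.6 ± 29.3, 135 ± 23.7 and 1245 ± 133 normalized counts in SkMRMs, gal-3+ macrophages and MDMs, and Ppm1f had 577.5 ± 24.6, 840.5 ± 18.4 and 409 ± 31.0 (SD, n = 3, 4 and 3), the same orders as Ms4a4c and Ms4a7.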

How the data were processed

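Bulk RNAseq was available for 10 libraries of sorted mouse macrophages, 3 of SkMRMs, 4 of gal-3+ macrophages and 3 of MDMs, which the labels give as biological replicates. The authors made the libraries from 2 ng of total RNA with a stranded low-input kit, mapped paired-end reads to mm10 with TopHat2 2.0.14 and GENCODE M9, and summarised them over genes by HTSeq 1.99.2. As deposited, the signal is the count of a gene over the DESeq2 (1.28.1) size factor of its library. The table also holds the authors' log2 fold changes, their standard errors and Wald statistics (each a score), and their p-values as deposited, none of which was used. The SkMRM columns were matched to single samples and the gal-3+ and MDM columns to their population only, because the numbers in their names differ from those in the titles.

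Log2(normalized count + 1) of all 17001 genes was fitted with limma 3.58.1 (R 4.3.3) over all 10 libraries with no covariate, since the values were not raw counts. A minimum of 10 normalized counts, required in 3 or more libraries, took out 0 genes. Dividing by the smallest step gave whole reads for 100% of values, within 0.001, and these reads were used for edgeR 4.0.16 and DESeq2 1.42.0 as alternatives. The code was tested on simulated data. Other alternatives were the pseudocount, the filter, the scaling, the libraries in the fit, the call threshold, a replicate block, and leaving out each library. Genes were named by rule: the members, other family genes called or with a mean of at least 100 normalized counts, partner genes, the 3 genes most correlated with each member, and called neighbours within 300 kb. Ms4a1 and Gm8369 were named outside this rule, as were the marker genes given as examples, after their values were seen. The members and gene lists were chosen with earlier results of these data known. A gene of the monocyte list is not reported here and was left out of its sums and counts. Positions and exon lengths came from GENCODE M21 on GRCm38, and promoters from RefSeq.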

Additional observations from a re-analysis of the deposited data

Results flagged for a closer look

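Of 17 genes checked (the members, the other named family genes and their partners) 3 had a gal-3+ library far from the other 3, measured as its gap to the nearest library over the range of the 4. Ms4a4c was at 848 normalized counts in mdx5 and at 700.2 to 725 in the others, a gap of 0.835 of the range. Ms4a4a was at 4889 in mdx1 and at 6203 to 6470 in the others, with 0.831. Fcer1g was at 13623 in mdx4 and at 12130 to 12245 in the others, with 0.923. Chance alone gives about 1 such case in 20 groups. None of the calls for these genes between gal-3+ macrophages and another population changed when that library was left out.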

How the results depend on the processing

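The members called higher or lower numbered 1 between gal-3+ macrophages and SkMRMs, 3 between MDMs and SkMRMs and 2 between MDMs and gal-3+ macrophages, and these numbers held with edgeR, with DESeq2 and without each library in turn, although without WT3 the member called in the first comparison was Ms4a4c and not Ms4a7. In the first comparison there were 2 with a pseudocount of 5, with a minimum of 50 normalized counts or with TMM scaling, where Ms4a4c joined (log2 fold changes of 1.35, 1.37 and 1.44, limma adjusted p = 0.00689, 0.00984 and 0.0077), and 0 with upper-quartile scaling, which shifted the median of all genes by -0.12 and, for MDMs over SkMRMs, by -0.15. With TMM scaling 34.7% of the genes called in gal-3+ macrophages over SkMRMs were higher, against 30.9% in the fit given and 24.4% with upper-quartile scaling. With no minimum fold and an adjusted p under 0.05, 5 members passed in the first comparison and 5 between MDMs and gal-3+ macrophages, and 8344, 9734 and 6819 of all genes passed in the 3 comparisons; at 0.01, chosen after seeing the data, 4 and 5 members and 6078, 7795 and 4672 genes. These compare with 2935, 4562 and 1956 of all genes under the full rule, 2791, 4271 and 1846 in edgeR and 3205, 4726 and 2176 in DESeq2.

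With the replicate number as a block, 1, 3 and 2 members were called, and 1956 of all genes between gal-3+ macrophages and SkMRMs. The block ended the calls of Ms4a4b in MDMs over SkMRMs (2.30, limma adjusted p = 0.0551) and over gal-3+ macrophages (2.36, limma adjusted p = 0.0135), and those against SkMRMs of Vwce (-2.90 and -2.96, limma adjusted p = 0.0996 and 0.125) and BE692007 (-1.75, limma adjusted p = 0.0665). With the block and mdx libraries only, chosen after seeing the data, 1268 genes passed between MDMs and gal-3+ macrophages. Libraries of these populations with the same number correlated at -0.0279, 0.0102 and 0.0253 in their deviations, and the numbers were not taken as pairs. With so few libraries these correlations cannot decide whether equal numbers mean the same mouse. Under the block Ms4a4c in gal-3+ macrophages over SkMRMs was 0.58, Ms4a4b in that comparison -0.058, and Ms4a6d in MDMs over SkMRMs -0.10, and Fcer1g in MDMs over gal-3+ macrophages was -0.00378 with mdx libraries only, where Vwce was 0.11 and the Ms4a4b call was again lost (2.25, limma adjusted p = 0.0242).

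The values that changed sign were not called, the largest being 0.36 for Ms4a4b in gal-3+ macrophages over SkMRMs. Fcer1g in MDMs over gal-3+ macrophages gave -0.033 with TMM, -0.029 with upper-quartile scaling, -0.032 in edgeR and -0.025 to 0.071 without single libraries. In MDMs over SkMRMs, upper-quartile scaling gave -0.14 for Ms4a6b and -0.15 for Ms4a6d, and leaving out libraries gave -0.038 to 0.058 and -0.10 to 0.079. Leaving out libraries gave -0.017 to 0.71 for Ms4a4b in gal-3+ macrophages over SkMRMs and -0.015 to 0.12 for Ms4a4a in MDMs over gal-3+ macrophages, where Vwce ranged from -0.93 to 0.33, above 0 without gal-3+ library mdx3 or MDM library mdx4. Vwce also lost its calls against SkMRMs with a pseudocount of 0.5 (-3.57 and -3.93, limma adjusted p = 0.0186 and 0.0129), with edgeR (-3.22 and -3.62, edgeR adjusted p = 0.0266 and 0.0286) and with DESeq2 (-3.33 and -3.72, DESeq2 adjusted p = 0.0102 and 0.0108), and without single libraries of all populations. The cause was not tested in any of these cases. Depth limits what can be said of low genes, among them Ms4a1, Ms4a4b, Ms4a4d, Gm8369, Vwce and, in MDMs, Vsig4.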
